A study of Mus musculus with 26 samples.

Results

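Macrophages that live inside the pancreatic islets of C57BL/6J (B6) mice were compared between 12 weeks and 2 weeks of age, over all genes. The comparison used 7 of the 26 libraries of the series, 4 from 12-week-old and 3 from 2-week-old mice, chosen by the strain and age in their labels. The series holds bulk RNA-seq of islet macrophages from B6 and from NOD/ShiLtJ (NOD), a strain that develops autoimmune diabetes, at several ages from 2 to 12 weeks. All mice were female, and the labels give no treatment. Each library came from live cells sorted as CD45+, F4/80+ and CD11c+ without B220 or CD90, out of the islets of 6 to 14 pooled mice, and the RNA was amplified before sequencing. The labels do not say that replicates came from separate litters or days, so p-values measure the spread between these libraries, which may be technical.

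Islet macrophages are the main resident immune cells of the islet. They sit close to capillaries and beta cells, take up material that beta cells release and carry MHC class II molecules, which show peptides of engulfed proteins to CD4+ T cells. Resident macrophages are in general seeded early in life, divide in place and can later be joined by cells derived from blood monocytes, which use the chemokine receptor Ccr2 to leave the bone marrow.

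The 7 libraries held 4957125 to 8420498 counts and 19532 to 23461 genes with a count. Levels are given as CPM, the usual unit of counts scaled to a common library size, here with TMM factors, and 3 counts correspond to 0.356 to 0.605 CPM. Of 40558 genes, 19703 passed a filter on low counts and were tested with the edgeR quasi-likelihood test in 1 fit to all 26 libraries. A gene is said to have risen or fallen at 12 weeks where the Benjamini-Hochberg adjusted p over all genes tested was under 0.05, and every adjusted p below is of this kind unless another fit is named. Log2 fold changes are given ± SE, and levels that are means are given ± SD (n = 3 at 2 weeks, n = 4 at 12 weeks). Whether counting used strand is not given in the sources used here, so genes that overlap another tested gene, among them H2-Eb1, Ciita, Csf1r, Grn, Stab1, Cxcl10, Ctsa, Mef2a, Dnaja1, Hspe1, Itgad and Hist1h1e, may hold reads of that gene. Plekhh2, chosen after its values were seen, took 8.55% of the counts of 2-week library 3 and 15.3% of 12-week library 2, and at most 0.22% of each of the others.

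Macrophage markers were high at both ages. The genes of the sort markers, Adgre1 for F4/80 and Itgax for CD11c, stood at 349.9 to 577 CPM and 623 to 925 CPM over the 7 libraries. Cd68, a lysosomal protein of macrophages, stood at 502 to 796 CPM and Cx3cr1, the fractalkine receptor, at 544 to 1170 CPM. None of these 4 genes passed the edgeR test (adjusted p = 0.53 to 0.985). Other macrophage markers did change: in a core list of 19 genes Lyz2 rose, and Fcgr1, Spi1, Csf1r and Cd14 fell, as given below. Some genes of cells that the gate should leave out were low. Thy1 (CD90) reached at most 2.42 CPM, the T-cell gene Cd3e 1.8 CPM and the acinar gene Prss2 5.36 CPM. The B-cell gene Cd79a had 0 to 12 counts per library. Others were not low: the insulin gene Ins2 averaged 692 CPM and the immunoglobulin gene Ighm 447 CPM at 2 weeks, as given below.

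In all, 392 of 19703 genes changed (1.99%), 151 rising (0.766%) and 241 falling (1.22%) at 12 weeks, and 2605 had an unadjusted p under 0.05. With upper-quartile scaling the split was 193 rising and 184 falling, and with DESeq2 and its own scaling 523 rising and 442 falling. The median log2 fold change over all genes tested was 0.05. The libraries of the 2 ages did not overlap in 2589 genes (13.1%), among them 374 of the 392 that changed. The B6 4-week libraries are not compared here, but they enter the filter, the scaling and the estimate of spread. They were less alike (mean Spearman correlation across genes 0.746) than those at 2 weeks (0.814) and at 12 weeks (0.803). Without them 19035 genes were tested, 751 rose (3.95%) and 1056 fell (5.55%), and these included all 392. Omission of 1 of the 7 compared libraries left 185 calls without 2-week library 3, 196 without 2-week library 2 and 250 without 2-week library 1. It left 244, 246, 233 and 433 calls without 12-week libraries 1, 2, 3 and 4.

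The change with age went along with the GC content of genes. Over 5029 genes with a mean of at least 20 CPM, the Spearman correlation across genes between log2 fold change and GC content was -0.464 in B6 and -0.00819 in NOD over the same ages. Genes are not independent replicates, so no p is given. Between the bins of lowest and highest GC content, with medians of 38.8% and 61.2%, the median log2 fold change went from 0.405 to -0.697. The 4 B6 12-week libraries each deviated from the mean of all libraries in this way (Spearman -0.377 to -0.306), outside the range of all other libraries (-0.196 to 0.214). The same 4 stood apart for transcript length (0.266 to 0.298, against -0.282 to 0.178 in all others). Across genes the correlation of log2 fold change with length was 0.234 in B6 and -0.176 in NOD. With the GC offsets described below it was still 0.133 in B6. Genes that rose had a median GC content of 45.5% and a median transcript length of 4101 bases. Genes that fell had 54.8% and 2776 bases, against 49.4% and 2976 bases over all genes tested. Age and any difference in library preparation between these ages cannot be told apart. A fit with offsets for GC content in each library, chosen after seeing the data, called 110 rises (0.559%) and 144 falls (0.732%), 193 of them among the 392. Its adjusted p is given below wherever it ends a call. Calls that it added are given for some genes only.

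**Figure D1:**
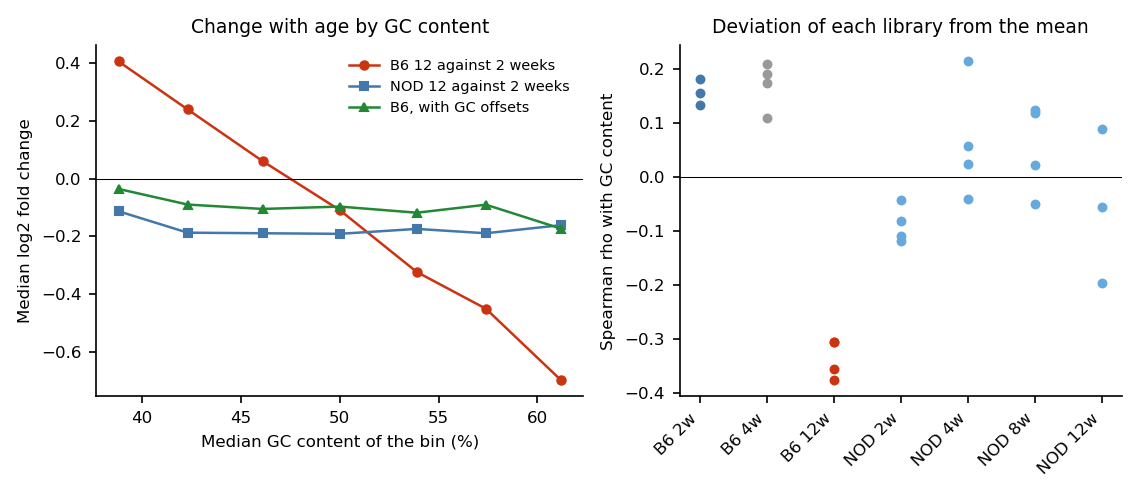
Left, median log2 fold change from 2 to 12 weeks (y axis) of genes grouped by GC content (x axis, median of each group in %), for B6, for NOD and for B6 with GC offsets. Right, Spearman correlation across genes between GC content and a library's deviation from the mean of all libraries (y axis), 1 point per library by strain and age. The B6 line runs from 0.405 to -0.697, and the 4 B6 12-week points lie at -0.377 to -0.306, below all others.

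Genes of MHC class II presentation had the highest median change of 27 lists of macrophage programs. Of 12 genes 6 rose and 1 fell, against 0.766% and 1.22% of all genes. The median log2 fold change was 0.88 against 0.05 over all genes. In 6 of the 12 every 12-week library was above every 2-week library (6.13% of all genes). Among 13 lists of other cells, mast cells, basophils and eosinophils (1.87) and B and plasma cells (1.31) had higher medians with 0 calls. H2-Aa, the alpha chain of the class II molecule I-A, stood at 2527, 3754 and 2218 CPM at 2 weeks and at 7625, 9359, 9074 and 7362 CPM at 12 weeks. It was 2.95-fold higher with no overlap (log2 fold change 1.56 ± 0.18, edgeR adjusted p = 2.95e-06). H2-Ab1, the I-A beta chain, went from 3040, 4804 and 2164 CPM to 6105, 8024, 7789 and 7644 CPM (1.15 ± 0.18, adjusted p = 0.000202). H2-Eb1, the beta chain of I-E, went from 2252, 3629 and 1907 CPM to 5058, 6437, 6255 and 6994 CPM (1.25 ± 0.19, adjusted p = 0.000146). In the 3 genes 2-week library 2 was the highest of its age and 2-week library 3 the lowest, and the ages did not overlap.

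The promoters of a pair of these genes are shown because class II genes carry conserved boxes, which hold the complex that recruits the coactivator encoded by Ciita. They are the 250 bases before the start in the RefSeq table of GRCm38.p6, at chr17:34287824-34288073 on the minus strand for H2-Aa and chr17:34305617-34305866 on the plus strand for H2-Eb1. They are written 5′ to 3′ with GCAAC, part of the X box, and CTGATTGG, the Y box, in capitals.
H2-Aa: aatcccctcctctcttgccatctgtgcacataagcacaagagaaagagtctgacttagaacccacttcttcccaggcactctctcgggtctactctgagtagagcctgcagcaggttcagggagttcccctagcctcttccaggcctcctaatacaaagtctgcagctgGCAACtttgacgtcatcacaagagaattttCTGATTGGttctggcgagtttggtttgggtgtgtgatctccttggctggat
H2-Eb1: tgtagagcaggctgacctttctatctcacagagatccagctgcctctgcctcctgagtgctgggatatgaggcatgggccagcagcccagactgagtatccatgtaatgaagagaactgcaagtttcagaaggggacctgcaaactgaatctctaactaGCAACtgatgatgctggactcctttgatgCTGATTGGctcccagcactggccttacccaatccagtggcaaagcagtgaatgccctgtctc
GCAAC began 81 bases before the start in H2-Aa and 91 in H2-Eb1, and CTGATTGG began 51 and 62 bases before it. CTGATTGG on either strand was in 3.83% of the 32851 promoters of the same length. Both runs in this order on either strand, with 26 to 34 bases from start to start, were in 17 promoters (0.0517%) of 16 genes, among them H2-Aa, H2-Eb1, H2-Eb2 and H2-Oa. Of the list members that rose, 3 had an entry, H2-Aa, H2-Eb1 and Ctss, and Ctss held neither CTGATTGG nor the spaced pair. H2-Oa, which held the pair, did not pass (log2 fold change -0.24 ± 0.57, edgeR adjusted p = 0.919). A match describes the letters in this window and is no measurement of binding.

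The other members that rose act on the same path. Cd74, the invariant chain that fills the peptide groove until the endosome, was at 8146, 10774 and 6471 CPM at 2 weeks and 13440, 16489, 15397 and 13576 CPM at 12 weeks (log2 fold change 0.80 ± 0.15, adjusted p = 0.00211). Ctss, the protease that degrades the invariant chain, rose from 975 ± 83.2 to 1974 ± 253 CPM (1.02 ± 0.19, adjusted p = 0.00184). Ciita rose from 87.6 ± 18.1 to 171 ± 32.1 CPM (0.96 ± 0.25, adjusted p = 0.0372). The ages did not overlap in these 3 genes. The member that fell was Ifi30, a lysosomal reductase that helps to unfold antigens, from 244, 355 and 326 CPM to 145, 169, 138 and 182 CPM (-0.96 ± 0.17, adjusted p = 0.000911). With GC offsets all 7 passed in the same direction, and so did H2-DMb1, a chain of the peptide-loading chaperone, as a rise (adjusted p = 0.0369, against 0.13 without offsets; 184 ± 83.3 and 279 ± 40.8 CPM). The call of Cd74 ended without 2-week library 3 (adjusted p = 0.0511). That of Ciita ended without any one of the 2-week libraries or of 12-week libraries 1, 2 and 4 (up to 0.219).

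**Figure D2:**
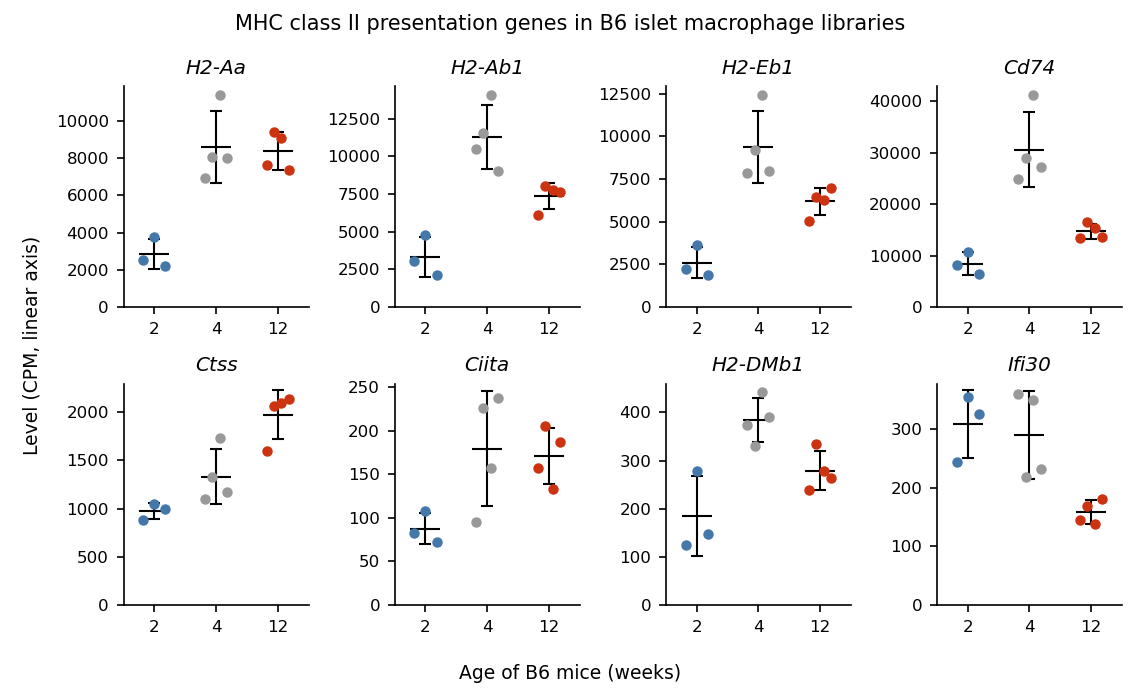
Level in CPM (y axes, linear, from 0) of 8 MHC class II presentation genes in each B6 library by age (x axis, weeks; n = 3, 4 and 4). Points are libraries and bars are mean ± SD. H2-Aa lies at 7362 to 9359 CPM at 12 weeks, above 2218 to 3754 CPM at 2 weeks, and Cd74 is highest at 4 weeks (24884 to 41161 CPM).

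H2-Ab1, H2-Eb1 and Cd74 were highest at 4 weeks among the 3 ages of B6. At 4 weeks H2-Ab1 stood at 9022 to 14075 CPM, H2-Eb1 at 7863 to 12409 CPM and Cd74 at 24884 to 41161 CPM, all above every 12-week library. H2-Aa (6897 to 11381 CPM) and Ctss (1096 to 1736 CPM) at 4 weeks lay above every 2-week library and overlapped with 12 weeks. Summed levels of other lists were also highest at 4 weeks. The core macrophage genes summed to 17739 to 19872 CPM at 4 weeks against 13516 to 14867 CPM at 2 weeks and 11862 to 15116 CPM at 12 weeks. The lysosome genes summed to 20581 to 26900 CPM against 13698 to 16409 CPM and 11400 to 16997 CPM. The 4-week libraries held a count in 14152 to 17839 genes, fewer than any of the 7 compared libraries, and the part of this in the 4-week levels was not tested. The 4-week levels are given without a test.

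Heat-shock chaperone genes were the only members that changed in a list of 32 immediate early and dissociation stress genes, which handling of tissue can induce. Of these, 5 rose, all chaperones or their helpers, and 0 fell, against 0.766% and 1.22% of all genes, with a list median of 0.08. Hsph1, which encodes a large chaperone of the Hsp110 class, stood at 238, 169.9 and 52.1 CPM at 2 weeks and 1252, 1259, 1148 and 833 CPM at 12 weeks. It was 7.32-fold higher (log2 fold change 2.87 ± 0.37, edgeR adjusted p = 2.42e-05), and at 4 weeks it stood at 306 to 767 CPM, between the other ages without overlap. Dnajb1, a helper of Hsp70, went from 152, 186 and 73.7 CPM to 472, 767, 656 and 445 CPM (2.09 ± 0.27, adjusted p = 1.46e-05). The inducible Hsp70 genes Hspa1a (232 ± 120.5 to 1101 ± 254 CPM, adjusted p = 0.0149) and Hspa1b (162 ± 94.2 to 568 ± 126 CPM, adjusted p = 0.0489) are near-identical copies, so their separate levels are uncertain. Hsp90aa1, the inducible Hsp90, rose from 116 ± 20.5 to 245 ± 59.2 CPM (adjusted p = 0.0133).

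In these 5 genes 2-week library 3 was the lowest of the 7 libraries, and 12-week library 4 was the lowest of its age. With GC offsets 4 of the 5 kept their calls, and Hsp90aa1 did not (adjusted p = 0.109). The call of Hspa1a ended without 2-week library 2 or 3 (up to 0.0906). That of Hspa1b ended without either of these or any of 12-week libraries 1 to 3 (up to 0.204), and that of Hsp90aa1 without 2-week library 1 or 3 or 12-week library 2 (up to 0.112). The summed level of the list was 16859 to 35083 CPM at 2 weeks and 13378 to 34008 CPM at 12 weeks, with overlap, and 27 of its genes did not pass. The part of cell dissociation in the chaperone levels was not tested.

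A further 3 heat-shock genes were chosen after their values were seen. Dnaja1, another helper of Hsp70, rose from 94.2 ± 22.2 to 474 ± 157 CPM (log2 fold change 2.33 ± 0.26, adjusted p = 2.65e-06). Bag3, a co-chaperone that links Hsp70 to autophagy, rose from 94.1 ± 39.95 to 472 ± 172 CPM (2.33 ± 0.35, adjusted p = 0.000146). Hspe1, a chaperonin subunit of mitochondria, went from 11.8, 15.3 and 12.2 CPM to 48.4, 48.9, 45.6 and 30.02 CPM (adjusted p = 0.0416). The Hspe1 call ended with GC offsets (0.105) and without any one of the 2-week libraries or of 12-week libraries 1 to 3 (up to 0.182). Hspe1 overlaps its neighbour Hspd1, which lies on the other strand.

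The promoters of Hsph1 and Hspe1 show forms of the heat shock element, the site of the transcription factor Hsf1, which is built from the units GAA and TTC. The runs are the 250 bases before the start in the RefSeq table of GRCm38.p6, at chr5:149636337-149636586 on the minus strand for Hsph1 and chr1:55087898-55088147 on the plus strand for Hspe1, with adjoining units in capitals.
Hsph1: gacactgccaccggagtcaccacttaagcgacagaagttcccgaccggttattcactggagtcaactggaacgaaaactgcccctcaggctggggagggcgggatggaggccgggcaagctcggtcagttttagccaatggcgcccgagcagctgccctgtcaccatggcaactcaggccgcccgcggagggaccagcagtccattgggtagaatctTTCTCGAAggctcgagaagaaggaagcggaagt
Hspe1: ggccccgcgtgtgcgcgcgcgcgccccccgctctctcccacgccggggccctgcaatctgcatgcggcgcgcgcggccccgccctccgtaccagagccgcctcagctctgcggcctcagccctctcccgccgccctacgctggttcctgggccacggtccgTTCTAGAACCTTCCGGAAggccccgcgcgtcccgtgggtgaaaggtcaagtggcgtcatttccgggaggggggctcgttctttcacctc
The form of 3 alternating units with 2 free bases between neighbours, on either strand and starting with GAA, was in 0.466% of the 32851 promoters and in 1 of the 7 heat-shock genes with an entry. That gene was Hspe1, where the run in capitals began 89 bases before the start. The form of 2 units, GAANNTTC or TTCNNGAA, which the longer form contains, was in 12.8% of promoters and in 5 of the 7 genes. In Hsph1 it began 33 bases before the start.

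Among genes that changed with at least 5 CPM in the higher group and no overlap between the ages, the largest rise lay beside Hsph1. Wdr95, a gene for a WD-repeat protein, stood at 0.11, 1.54 and 0.57 CPM at 2 weeks and 28.9, 38.7, 32.6 and 4.67 CPM at 12 weeks, from 20 and 688 counts in all. It was 34.8-fold higher (log2 fold change 5.12 ± 1.17, adjusted p = 0.0133), a call that ended without 2-week library 1 or 3 (up to 0.0926). Wdr95 (chr5:149528679-149611894, plus strand) and Hsph1 (chr5:149614287-149636376, minus strand) end towards each other with 2392 bases between them in GRCm38 (GENCODE M21). The 12-week library lowest in Hsph1, library 4, was also the lowest in Wdr95. At 4 weeks, with Hsph1 at 306 to 767 CPM, Wdr95 stood at 0 to 3.05 CPM. In NOD Hsph1 rose (log2 fold change 1.36 ± 0.33, adjusted p = 0.0159), and Wdr95 did not pass (0.40 ± 0.94, adjusted p = 0.936). Where along Wdr95 the reads lay cannot be told from counts per gene.

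Cell cycle genes stood lower at 12 weeks. Of 40 genes 8 fell and 0 rose, against 1.22% and 0.766% of all genes. The median log2 fold change was -1.28, with 39 negative estimates. In 13 every 12-week library was below every 2-week library (7.01% of all genes). Mki67, the Ki-67 antigen of dividing cells, stood at 233, 395 and 489 CPM at 2 weeks and 60.2, 141, 98.8 and 103 CPM at 12 weeks. It was 3.69-fold lower (log2 fold change -1.89 ± 0.29, edgeR adjusted p = 0.000208). Plk1, a kinase of mitosis, stood at 14.7, 25.2 and 22.2 CPM and then 0.178, 3.25, 0.535 and 3.08 CPM, 11.6-fold lower (-3.53 ± 0.74, adjusted p = 0.00595). The ages did not overlap in either gene, and 2-week library 1 was the lowest of its age in both.

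The other 6 calls in the list ended on omission of single libraries. Mcm3, a subunit of the replicative helicase, fell from 67.8 ± 3.19 to 36.6 ± 3.51 CPM (adjusted p = 0.0193), a call lost without any one of the 2-week libraries or 12-week library 2 (up to 0.0797). Tpx2, Aurkb, Kif23, Top2a and Nusap1, which act in mitosis or chromosome separation, fell too (adjusted p = 0.033 to 0.0495), and each lost its call without any one of at least 5 of the 7 libraries (up to 0.369). Kif23 and Top2a overlapped between the ages. With GC offsets 6 of the 40 fell, while Aurkb (0.0802) and Mcm3 (0.0814) did not pass, and without the 4-week libraries 23 fell. The summed level of the list was 852 to 1629 CPM at 2 weeks, 637 to 1768 CPM at 4 weeks and 334 to 556 CPM at 12 weeks. In bulk RNA, fewer cells of a kind and less of their RNA per cell cannot be told apart.

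Of the 12 largest falls chosen in the same way 9 were genes of histones or of mitosis, Plk1 and Aurkb included. The Hist1 and Hist2 genes supply histones during DNA synthesis, and many have near-identical copies, so single members are uncertain. Hist1h2ak went from 29.7, 60.5 and 129 CPM to 1.25, 2.11, 1.47 and 15.1 CPM (log2 fold change -3.83 ± 0.67, adjusted p = 0.000911), with 12-week library 4 the highest of its age. Hist1h1b went from 4.75, 10.2 and 10.4 CPM to 0, 0, 0 and 0.743 CPM, from 227 and 7 counts (adjusted p = 0.0451). Hist1h1e fell from 92.7 ± 47.6 to 14.5 ± 11.1 CPM (adjusted p = 0.00353) and Hist1h2bb from 45.1 ± 25.3 to 7.33 ± 4.59 CPM (adjusted p = 0.00711), and both calls ended without 2-week library 3 (0.0508 and 0.0908). Ckap2, a spindle protein gene, fell from 10.9 ± 4.13 to 0.573 ± 0.826 CPM (adjusted p = 0.0226), a call lost without 2-week library 1 or 2 or any of 12-week libraries 2 to 4 (up to 0.101). Hist1h1b, Hist1h2ab and Hist2h2ac (adjusted p = 0.0451, 0.0295 and 0.0481) lost their calls with GC offsets (0.0771, 0.084 and 0.145) and without any one of at least 5 of the 7 libraries (up to 0.149, 0.102 and 0.2). The ages did not overlap in any of these genes, which the choice of the largest falls required.

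The remaining genes among the 12 largest falls were Itgad, S100a10 and Gcg, the last of which is given with the endocrine genes. Itgad, an integrin chain of myeloid cells, stood at 4.41, 8.6 and 3.42 CPM at 2 weeks and 1.07, 0.325, 0.802 and 0.743 CPM at 12 weeks (log2 fold change -2.88 ± 0.52, adjusted p = 0.00132). It overlaps Cox6a2 on the genome. S100a10, the partner of annexin A2, went from 5.51 ± 2.21 to 0.63 ± 0.482 CPM (adjusted p = 0.0394), a call lost with GC offsets (0.0598) and without any one of the 2-week libraries or of 12-week libraries 1 to 3 (up to 0.15).

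Ccr2, Lyz2 and Wfdc17, genes of myeloid cells, rose at 12 weeks. Ccr2, the receptor for the chemokine Ccl2, stood at 8.5, 6.06 and 4.91 CPM at 2 weeks, 10.02 to 45.4 CPM at 4 weeks and 79.5, 66.3, 71.9 and 118 CPM at 12 weeks. It was 12.9-fold higher at 12 than at 2 weeks (log2 fold change 3.69 ± 0.42, edgeR adjusted p = 2.74e-06), and no 2 of the 3 ages overlapped. Lyz2, the lysozyme of myeloid cells, went from 387, 198 and 176 CPM to 776, 905, 845 and 1073 CPM (1.82 ± 0.26, adjusted p = 6.15e-05). Wfdc17, a small secreted protein of activated macrophages, went from 3.53, 2.87 and 3.65 CPM to 72.5, 87.1, 86.5 and 74 CPM, 23.8-fold higher (adjusted p = 5.38e-05). These 3 kept their calls with GC offsets and on omission of each compared library. Ccr2 was the only call among 13 tested markers of monocytes and neutrophils (1.99% of all genes were called). These markers had a median log2 fold change of -1.56 and summed to 94 to 113.5 CPM at 2 weeks and 169 to 237 CPM at 12 weeks. Most of that sum was Ccr2 itself and Csf3r, the receptor for granulocyte colony-stimulating factor, which averaged 77.6 and 92.9 CPM and did not pass (adjusted p = 0.738). Ly6c2, a defining marker of classical monocytes, averaged 0.519 CPM at 2 weeks and 0 CPM at 12 weeks, with overlap (adjusted p = 0.149). Vcan, another gene of this list, went the other way without overlap, from 2.534 to 11.01 CPM on average (adjusted p = 0.3625). Of the 13 estimates 6 were positive, that of Ccr2 included, and 7 were negative. Whether the share of monocytes changed was not tested.

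Other receptors for attractants changed as well, with 3 of 12 rising and 1 falling (0.766% and 1.22% of all genes) and a median of -0.13. Cxcr4, the receptor for Cxcl12, went from 414, 169 and 115 CPM to 804, 903, 869 and 477 CPM (log2 fold change 1.71 ± 0.34, adjusted p = 0.00357). S1pr1, a receptor for sphingosine-1-phosphate, rose from 69.6 ± 20.3 to 166 ± 24.9 CPM (adjusted p = 0.0125), and Ccr1, a receptor for Ccl3 and Ccl5, fell from 37.1 ± 17.8 to 10.6 ± 4.59 CPM (adjusted p = 0.0389). These calls held with GC offsets. They ended without 2-week library 2 for Cxcr4 (0.0597), without 2-week library 2 or 3 for S1pr1 (up to 0.119), and without either of these or any of 12-week libraries 1 to 3 for Ccr1 (up to 0.319).

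**Figure D3:**
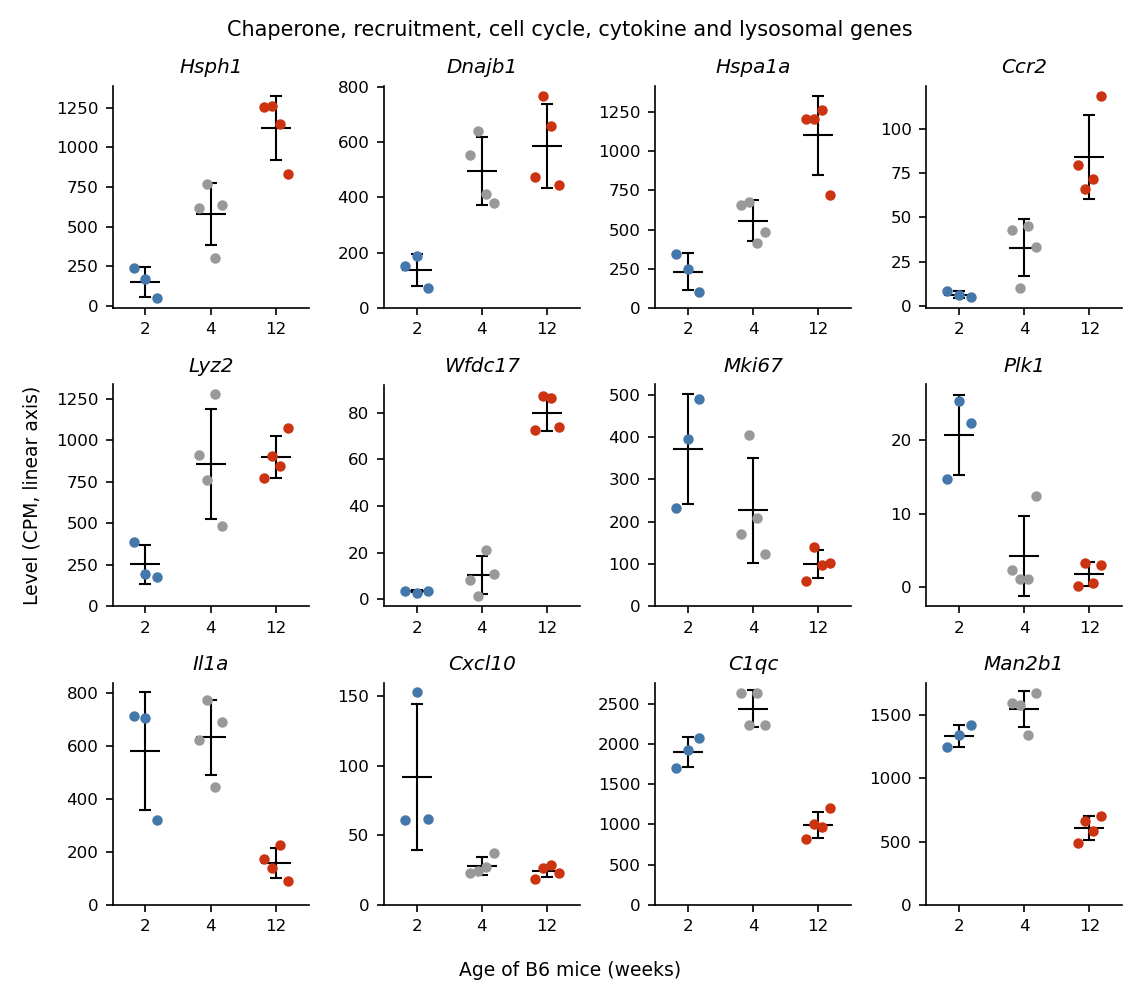
Level in CPM (y axes, linear, from 0 or below where the bar of the SD reaches there) of 12 genes in each B6 library by age (x axis, weeks; n = 3, 4 and 4). Points are libraries and bars are mean ± SD. In Hsph1, Dnajb1, Hspa1a, Ccr2, Lyz2 and Wfdc17 every 12-week library lies above every 2-week library, and in Mki67, Plk1, Il1a, Cxcl10, C1qc and Man2b1 below.

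The remaining genes with the largest rises belonged to no single list. H2-M2, a nonclassical class I gene, stood at 2.65, 4.63 and 4.56 CPM at 2 weeks and 89.5, 84.6, 67.6 and 43.4 CPM at 12 weeks (log2 fold change 4.17 ± 0.72, adjusted p = 0.00192). Slc41a2, a magnesium transporter gene, went from 0.662, 1.21 and 0.799 CPM to 17.5, 22.2, 16.6 and 16.4 CPM (4.33 ± 0.67, adjusted p = 0.000202). Itgb8, the beta chain of an integrin that activates latent TGF-beta, went from 6.62, 8.15 and 1.25 CPM to 58.4, 88.2, 94.8 and 97.9 CPM (3.98 ± 0.74, adjusted p = 0.00184). In each of these 3 genes the lowest 12-week library stood several-fold above the highest 2-week library, where the choice itself required no overlap. Atp2b4, a calcium pump of the plasma membrane, rose from 12.1 ± 3.74 to 88.9 ± 17.5 CPM (adjusted p = 0.000167), and Sorbs3, which encodes the adhesion protein vinexin, from 5.27 ± 2.35 to 47.8 ± 9.97 CPM (adjusted p = 0.00397). These 5 kept their calls with GC offsets and on omission of each compared library.

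Calls of the last 3 genes with the largest rises ended on omission of single libraries. Lrrk2, a kinase gene linked to Parkinson disease, rose from 2.32 ± 1.76 to 22.7 ± 6.94 CPM (adjusted p = 0.033), Klf9, a transcription factor that glucocorticoids induce, from 2.19 ± 0.874 to 19.8 ± 8.71 CPM (0.017), and Hepacam2, an adhesion protein gene, from 8.12 ± 3.33 to 65.4 ± 10.7 CPM (0.0327). Lrrk2 and Hepacam2 lost the call with GC offsets (0.0614 and 0.0925) and without any one of at least 6 of the 7 libraries (up to 0.199 and 0.207). Klf9 lost it without any one of the 2-week libraries or 12-week library 1 (up to 0.114). The ages did not overlap in these genes, which the choice of the largest rises required.

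In the core macrophage list single members changed while the summed level overlapped. Of 19 genes 1 rose, Lyz2, and 4 fell (median -0.14), against 0.766% and 1.22% of all genes. The 19 genes summed to 13516 to 14867 CPM at 2 weeks and 11862 to 15116 CPM at 12 weeks. Csf1r, the receptor for the growth factors Csf1 and Il34 on which resident macrophages depend, stood at 3039, 2296 and 2746 CPM at 2 weeks and 1606, 2023, 1719 and 2061 CPM at 12 weeks (log2 fold change -0.54 ± 0.12, adjusted p = 0.008). Spi1, which encodes the transcription factor PU.1, went from 272, 288 and 296 CPM to 118, 135, 176 and 188 CPM (-0.89 ± 0.17, adjusted p = 0.00283). Cd14, the co-receptor for lipopolysaccharide, fell from 199 ± 73 to 107 ± 31.5 CPM (adjusted p = 0.0308), with overlap. These 3 calls ended with GC offsets (0.274, 0.169 and 0.13). That of Csf1r also ended without 2-week library 1 or 3 or 12-week library 3 (up to 0.0827), and that of Cd14 without any one of 5 of the 7 libraries (up to 0.292). Of 33 macrophage transcription factor genes Spi1 fell and Mef2a rose, from 315 ± 54.5 to 498 ± 64 CPM (adjusted p = 0.024), a call lost with GC offsets (0.39) and without 2-week library 2 or 3 or 12-week library 2 or 3 (up to 0.221). Over all genes 1.99% changed, so these calls say little about the transcription factor list.

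Fc receptor genes, whose products bind antibody-coated particles, moved in both directions, with 1 of 6 rising and 3 falling (0.766% and 1.22% of all genes). Fcgr1, the high-affinity receptor, stood at 232, 285 and 245 CPM at 2 weeks and 95.3, 136, 114 and 165 CPM at 12 weeks (log2 fold change -0.99 ± 0.17, adjusted p = 0.000702). Fcgr3 fell from 463 ± 30.8 to 320.3 ± 29.1 CPM (adjusted p = 0.0358), and Fcer1g, the signalling chain that activating receptors share, from 1468 ± 352 to 982 ± 52.6 CPM (adjusted p = 0.0233). Fcgr2b, the inhibitory receptor, went from 79.7, 50.4 and 39.6 CPM to 125, 123, 122 and 99.2 CPM (1.05 ± 0.24, adjusted p = 0.0126). The ages did not overlap in these 4 genes. With GC offsets Fcer1g (0.105) and Fcgr2b (0.0614) did not pass. Fcgr1 kept its call on omission of each compared library. Fcgr2b lost it without 2-week library 2 or 3 (up to 0.135), Fcer1g without either of these or any of 12-week libraries 1 to 3 (up to 0.249), and Fcgr3 without any one of the 2-week libraries or of 12-week libraries 2 to 4 (up to 0.172).

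Of 17 complement genes C1qc alone passed, with a list median of -0.33. Over all genes 1.99% passed, so a single call says little about the list. C1qc, a chain of C1q, stood at 1696, 1927 and 2071 CPM at 2 weeks and 819.7, 1003, 963 and 1209 CPM at 12 weeks, 1.9-fold lower with no overlap (log2 fold change -0.93 ± 0.12, adjusted p = 1.33e-05). C1qb and C1qa, the other chains of the same protein, stood at 2087 ± 255 and 1928 ± 259 CPM (-0.11 ± 0.15, adjusted p = 0.833) and at 816 ± 154 and 979 ± 189 CPM (0.26 ± 0.17, adjusted p = 0.535). With GC offsets the log2 fold changes were -0.59 for C1qc (adjusted p = 0.00597), 0.22 for C1qb (0.679) and 0.68 for C1qa, which then passed as a rise (0.0395).

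Lysosomal genes changed in both directions, with 3 of 23 rising and 3 falling (0.766% and 1.22% of all genes) and a median of -0.01. Cst3, the cathepsin inhibitor cystatin C, went from 1017, 1044 and 1127 CPM to 1920, 2355, 2614 and 2514 CPM (log2 fold change 1.15 ± 0.15, adjusted p = 2.42e-05). Lyz2 rose as given above, and Lamp2, a lysosomal membrane protein, rose from 494 ± 43.3 to 751 ± 93.7 CPM (adjusted p = 0.0138). Lgmn, the protease legumain, went from 1863, 1931 and 1751 CPM to 965, 1273, 1099 and 1351 CPM (-0.66 ± 0.11, adjusted p = 0.000691). Ctsa, a carboxypeptidase, fell from 1025 ± 127 to 664 ± 135 CPM (adjusted p = 0.0124), and Tfeb, a transcription factor of lysosomal genes, from 45.6 ± 2.66 to 18.9 ± 7.93 CPM (adjusted p = 0.0358). Lamp2 (0.71), Ctsa (0.194) and Tfeb (0.351) lost their calls with GC offsets. They also lost them without 2-week library 1, Lamp2 further without 2-week library 3 (up to 0.114), Ctsa without 12-week library 1 or 3 (up to 0.115), and Tfeb without 2-week library 2 or 3 or any of 12-week libraries 1 to 3 (up to 0.138).

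Several of the most abundant genes that fell also encode proteins of the lysosome or endosome. Man2b1, the lysosomal alpha-mannosidase, stood at 1245, 1343 and 1418 CPM at 2 weeks and 492, 659.9, 582 and 704 CPM at 12 weeks (log2 fold change -1.13 ± 0.12, adjusted p = 7.55e-07). Grn, which encodes progranulin, fell from 1455 ± 138 to 796 ± 112 CPM (-0.87 ± 0.15, adjusted p = 0.000674), and Pld4, an endolysosomal nuclease, from 1637 ± 388 to 849 ± 170.2 CPM (-0.95 ± 0.17, adjusted p = 0.00129). Rps3, a ribosomal protein gene, fell from 1342 ± 187 to 738 ± 114 CPM (adjusted p = 0.00505), a call that ended without 2-week library 2 (0.0589). These genes were taken for their level among those that fell, so they form no list.

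The receptor genes for uptake that passed were Stab1, Lrp1 and Itgav, of 22 in the list, where 1.99% of all genes passed. Stab1, a scavenger receptor, stood at 1563, 817 and 957 CPM at 2 weeks and 299.9, 477, 471 and 571 CPM at 12 weeks, with no overlap (log2 fold change -1.29 ± 0.20, adjusted p = 0.000167). Of 22 scavenger and efferocytosis genes (median 0.01) Lrp1, a large endocytic receptor, also fell, from 1014 ± 253 to 498 ± 153 CPM (adjusted p = 0.0129), and Itgav, an integrin chain, rose from 167 ± 33.7 to 286 ± 28.2 CPM (adjusted p = 0.0233). Lrp1 (0.142) and Itgav (0.229) lost their calls with GC offsets, and Stab1 did not. Lrp1 also lost it without 2-week library 1 or 3 or any of 12-week libraries 1 to 3 (up to 0.125), and Itgav without 2-week library 2 or 3 or 12-week library 1 or 2 (up to 0.212).

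The lectin and lipid lists had 1 call each. Over all genes 1.99% were called, so a single call says little about a list. Siglech, a sialic acid-binding receptor also found on plasmacytoid dendritic cells, was the only call of 19 lectin and Siglec genes and rose from 52.3 ± 21.1 to 140.2 ± 38.1 CPM (adjusted p = 0.0104), a call lost without 2-week library 1 or 3 (up to 0.127). Markers of dendritic cells summed to 35.8 to 99.3 CPM at 2 weeks and 54.7 to 100.2 CPM at 12 weeks. Cd9, a tetraspanin, was the only call of 23 lipid-handling genes and fell from 91.4 ± 27.5 to 36 ± 17.3 CPM (adjusted p = 0.00843), a call lost without 2-week library 1 or 3 or 12-week library 3 (up to 0.0891). With GC offsets Apoe (adjusted p = 0.00745) and Lgals3 (0.0191) of the lipid list also passed as rises, and Cd33 of the lectin list as a fall (0.0332).

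Of 26 inflammatory cytokine and chemokine genes 1 rose and 1 fell, with a median of -0.19. Over all genes 1.99% changed, so these calls say little about the list. Il1a, the cytokine interleukin-1 alpha, stood at 710.3, 703 and 322 CPM at 2 weeks and 172, 138, 225 and 91.1 CPM at 12 weeks (log2 fold change -1.89 ± 0.36, adjusted p = 0.00281), and at 443 to 774 CPM at 4 weeks. Tnf, the tumour necrosis factor gene, stood at 431, 640.5 and 310 CPM and then 233, 254, 282 and 128 CPM, without overlap, and did not pass (-1.04 ± 0.34, adjusted p = 0.128). Cxcl14, a chemokine gene, rose from 15.7 ± 3.25 to 41.7 ± 12 CPM (adjusted p = 0.016), a call lost without 2-week library 2 or 3 or 12-week library 1 (up to 0.137). Both calls held with GC offsets.

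Of 31 type I interferon-stimulated genes 0 passed the edgeR test (5 at an unadjusted p under 0.05, 1 called by DESeq2, 0 by limma-voom), with a median of -0.32. Of 22 interferon-gamma response genes 1 rose and 3 fell, against 0.766% and 1.22% of all genes, with a median of -0.54. The members that fell were Fcgr1, Cxcl10 and Iigp1. Cxcl10, which attracts T cells, stood at 61.1, 152 and 61.7 CPM at 2 weeks and 18.8, 26.3, 28.9 and 22.7 CPM at 12 weeks (log2 fold change -1.93 ± 0.39, adjusted p = 0.00427). Iigp1, an interferon-induced GTPase, stood at 0.993, 37.7 and 2.4 CPM and then 1.25, 0.975, 0.134 and 0.106 CPM (adjusted p = 0.00769), with overlap. The calls of both ended without 2-week library 2 (0.121 and 0.538). That library was the highest of its age in further interferon-induced genes, with 157 CPM of Irf7 against 43 and 76.1 CPM, and 132 CPM of Zbp1 against 16.7 and 53.6 CPM. Gbp3, a guanylate-binding protein gene, rose from 28.4 ± 13.9 to 58.4 ± 10.3 CPM (adjusted p = 0.033), a call lost with GC offsets (0.116) and without 2-week library 1 or 3 or any of 12-week libraries 1 to 3 (up to 0.261).

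Of 26 genes of growth factors and matrix remodelling 3 rose and 1 fell, against 0.766% and 1.22% of all genes, with a median of 0.00. Mmp12, the macrophage elastase, stood at 345, 379 and 201 CPM at 2 weeks and 801, 996, 1007 and 616 CPM at 12 weeks (log2 fold change 1.47 ± 0.23, adjusted p = 0.000208). Timp2, an inhibitor of metalloproteinases, rose from 134 ± 39.8 to 318 ± 21.3 CPM (adjusted p = 0.00021). Tgfb1, the ligand TGF-beta 1, went from 571, 683 and 614 CPM to 284, 398, 299 and 389 CPM (-0.86 ± 0.13, adjusted p = 0.000142). Its receptor gene Tgfbr1 went the other way, from 904, 709 and 947 CPM to 1317, 1773, 1688 and 1602 CPM (0.90 ± 0.13, adjusted p = 0.000107). The ages did not overlap in either gene. The calls of these 4 genes held with GC offsets and on omission of each compared library.

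The ferritin chains, which store iron together, moved in opposite directions. Fth1, the heavy chain, stood at 2018, 2256 and 2154 CPM at 2 weeks and 4019, 4288, 4621 and 4335 CPM at 12 weeks (log2 fold change 1.01 ± 0.16, adjusted p = 0.000203). Ftl1, the light chain, stood at 223, 126 and 173 CPM and then 67.1, 87.7, 86.3 and 81.6 CPM (-1.11 ± 0.21, adjusted p = 0.00184), a call lost with GC offsets (0.0655). Both chains have processed copies in the genome, so their levels are uncertain. Slc11a1, a metal transporter of phagosomes, fell from 335 ± 55.2 to 213 ± 24.4 CPM (adjusted p = 0.0172), a call lost with GC offsets (0.285) and without 2-week library 1 or 3 or 12-week library 1 or 3 (up to 0.182). Among the other abundant genes that rose, Cybb, the catalytic chain of the phagocyte oxidase, went from 1563 ± 118 to 2433 ± 168 CPM (adjusted p = 0.00397), a call lost with GC offsets (0.277) and without 2-week library 3 (0.0503). Malat1, a long noncoding RNA of the nucleus, rose from 1206, 1216 and 1109 CPM to 2950, 3582, 3281 and 3041 CPM (1.45 ± 0.13, adjusted p = 3.47e-08).

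Of 17 glycolysis genes 2 rose and 2 fell, against 0.766% and 1.22% of all genes, with a median of -0.68. Gpi1, the glucose-6-phosphate isomerase, went from 266, 338 and 369 CPM to 148, 142, 178 and 208 CPM (log2 fold change -0.94 ± 0.15, adjusted p = 0.000195), and kept its call on omission of each compared library. The glucose transporter Slc2a1 rose from 43 ± 11 to 90.1 ± 22.9 CPM (adjusted p = 0.0254) and the hexokinase Hk1 from 18.6 ± 3.94 to 41.4 ± 6.16 CPM (0.0451). Another hexokinase, Hk3, fell from 44.6 ± 27.2 to 11 ± 3.47 CPM (0.0362) and did not pass with GC offsets (0.109). These last 3 lost their calls without any one of at least 5 of the 7 libraries (up to 0.202, 0.286 and 0.337). Of 30 oxidative phosphorylation genes Ndufa4 fell, from 47.5 ± 7.47 to 16.6 ± 12.7 CPM (adjusted p = 0.0266), a call lost without any one of 6 of the 7 libraries (up to 0.122). Of 14 purinergic and catecholamine receptor genes P2ry6, a receptor for UDP, fell, from 552, 457 and 430.1 CPM to 198, 266, 253 and 307 CPM (-0.90 ± 0.15, adjusted p = 0.000383). Over all genes 1.99% changed, so the single call in each of these last 2 lists says little about the list.

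**Figure D4:**
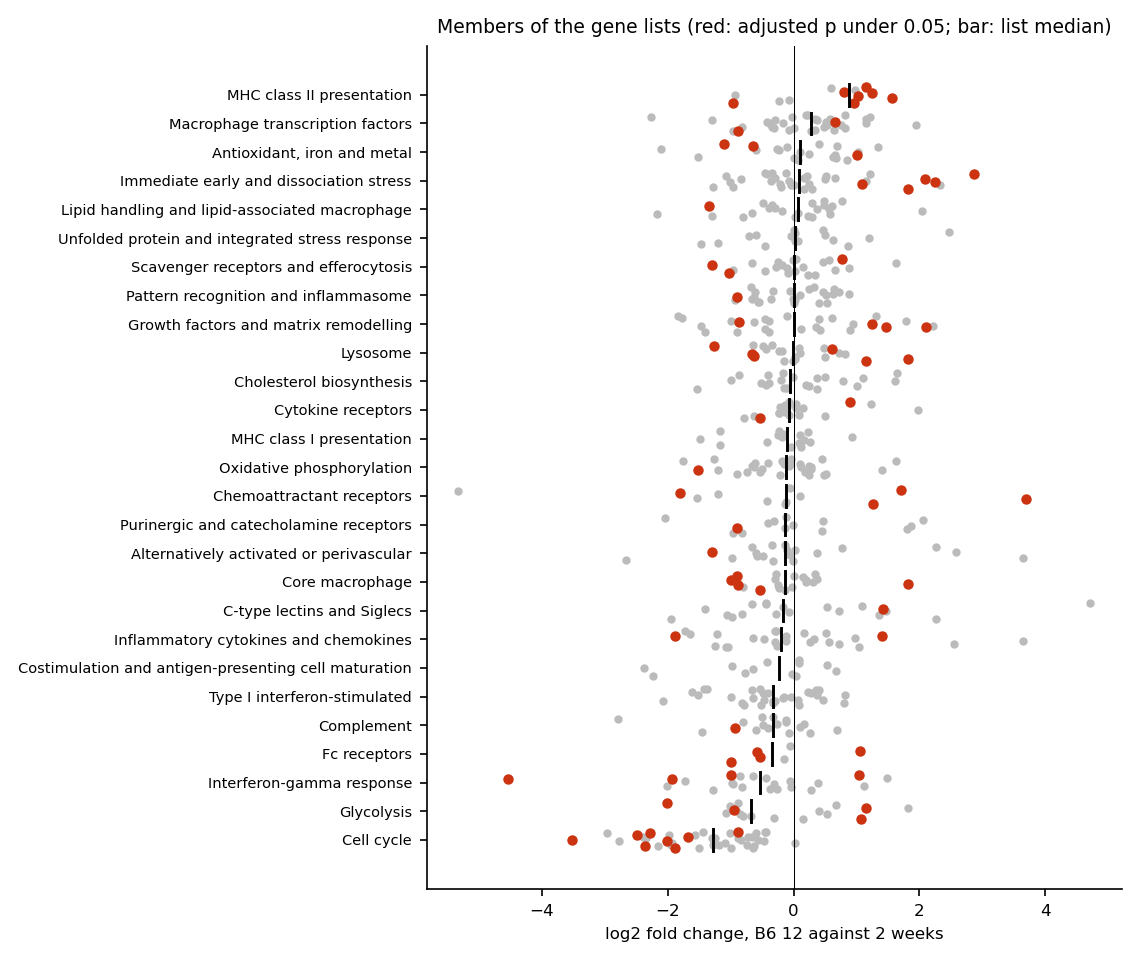
Log2 fold change from 2 to 12 weeks in B6 (x axis) of every tested member of 27 lists of macrophage programs, 1 row per list, ordered by median. Red points passed at an adjusted p under 0.05, grey points did not, and black bars are medians. The medians run from -1.28 (cell cycle) to 0.88 (MHC class II presentation).

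Besides the type I interferon list, 4 lists had 0 calls by edgeR in the fit to all 26 libraries without offsets, against 1.99% of all genes tested. MHC class I presentation (16 genes, median -0.10) had 4 genes at an unadjusted p under 0.05 and 0 called by DESeq2. Costimulation (12 genes, median -0.23) had 2 and 2, the unfolded protein response (16 genes, median 0.02) 5 and 1, and cholesterol biosynthesis (22 genes, median -0.06) 3 and 0. limma-voom called 0 in each of these. With GC offsets the class I gene B2m passed as a fall (edgeR adjusted p = 0.00631), from 5477 to 4106 CPM on average with overlap. Without the 4-week libraries 3 class I genes fell. In that fit costimulation had 1 rise and 1 fall, the unfolded protein response 1 rise and cholesterol biosynthesis 2 rises.

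RNA of islet endocrine cells was lower at 12 weeks in sum. The marker genes summed to 1115 to 1974 CPM at 2 weeks, 1104 to 1599 CPM at 4 weeks and 289 to 642 CPM at 12 weeks, and of the 19 tested, 18 estimates were negative (median -1.17). Gcg, the glucagon gene of alpha cells, stood at 482, 114 and 229 CPM at 2 weeks and 3.21, 32.3, 2.67 and 3.18 CPM at 12 weeks (log2 fold change -4.75 ± 0.99, edgeR adjusted p = 0.0125). It was the only call of the list, against 1.99% of all genes, and ended without 2-week library 1 (0.0555). The insulin genes did not pass: Ins1 stood at 146, 272 and 485 CPM and then 102, 144, 91.8 and 58.1 CPM (adjusted p = 0.12), and Ins2 at 332, 687 and 1057 CPM and then 339, 400.2, 353 and 191 CPM (adjusted p = 0.324). RNA taken up by macrophages and RNA of endocrine cells carried along in the sort cannot be told apart. A further fit held a covariate for islet RNA, the mean log2 level of the endocrine and acinar marker genes together. In it 107 genes rose and 166 fell. Among genes named here the calls of Ciita (adjusted p = 0.247), Cxcl10, Gbp3, Ccr1, Cd14, Fcer1g, Fcgr2b, Fcgr3, Itgav, Klf9, Lrrk2, Mef2a, Tfeb, S100a10, Hk1, Ndufa4, Hspa1b, Hspe1 and Hba-a1 ended in that fit, as did those of 9 histone and cell division genes (Hist1h1b, Hist1h2ab, Ckap2, Aurkb, Mcm3, Tpx2, Kif23, Top2a and Nusap1).

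Markers of other lineages gave few calls, as did all genes tested (1.99%). Hba-a1, an alpha-globin gene with a near-identical copy, had 101 counts at 2 weeks and 2 at 12 weeks, a ratio per depth of 54.6 (95% interval 14.7 to 457, counting error only). It passed (adjusted p = 0.0481), but not with GC offsets (0.0841) or without any one of 6 of the 7 libraries (up to 0.206). The other 10 lists, 96 genes of lymphoid, dendritic, mast, endothelial, stromal, Schwann, acinar and duct cells, gave 0 calls by edgeR (10 genes at an unadjusted p under 0.05, 2 called by DESeq2, 0 by limma-voom). Over all 19703 genes 392 were called and 2605 had an unadjusted p under 0.05. At that share 0 calls among 96 genes say little about these cells. Markers of T cells summed to 43.4 to 50.1 CPM at 2 weeks and 63.4 to 85.8 CPM at 12 weeks, most of it Il7r, the interleukin-7 receptor (39.0 and 65.9 CPM on average, adjusted p = 0.448). Cd3e, a defining T cell marker, averaged 0.369 and 0.451 CPM. Those of B and plasma cells summed to 340 to 611 CPM and 316 to 443 CPM, most of it Ighm, the immunoglobulin mu chain (447 and 319 CPM on average).

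The change in B6 was set beside that in NOD macrophages between the same ages, which rests on other libraries (4 at 2 weeks and 3 at 12 weeks). In NOD 352 genes rose (1.79%) and 247 fell (1.25%). Of the rises in B6, 42 were also rises in NOD (27.8% of those in B6, 11.9% of those in NOD), and 36 genes fell in both (14.9% and 14.6%). A further 9 genes rose in B6 and fell in NOD, and 10 the reverse. The strain-by-age interaction, which tests whether the change differs between the strains, called 329 genes (1.67%), 87 of them among the 392 called in B6. All interactions below are the NOD change less the B6 change on the log2 scale.

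H2-Aa, H2-Ab1, H2-Eb1 and Cd74 rose in both strains and rose less in B6. The interaction was 0.94 ± 0.24 for H2-Aa (adjusted p = 0.0334), 1.62 ± 0.24 for H2-Ab1 (6.9e-05), 1.77 ± 0.26 for H2-Eb1 (5.07e-05) and 1.45 ± 0.21 for Cd74 (4.33e-05), and all 4 passed with GC offsets (up to 0.00895). The interactions of Ctss (0.22 ± 0.26, adjusted p = 0.854) and Ciita (1.26 ± 0.35, adjusted p = 0.0566) did not pass, and 6 of the 12 list genes had one that did. H2-Aa averaged 2833 ± 812 CPM at 2 weeks and 8355 ± 1007 CPM at 12 weeks in B6, and 1967 ± 193 and 11147 ± 1838 CPM in NOD.

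Another group rose in B6 and fell in NOD. Mmp12 went from 717 ± 219 to 148 ± 20.03 CPM in NOD (interaction -3.75 ± 0.33, adjusted p = 9.24e-09), against 308 ± 94.9 to 855 ± 185 CPM in B6. Siglech went from 140.4 ± 38.1 to 21 ± 9.2 CPM in NOD (-4.17 ± 0.46, adjusted p = 7.18e-07), S1pr1 from 95 ± 17.7 to 19 ± 9.65 CPM (-3.58 ± 0.41, 1.43e-06), and Cxcl14 from 297 ± 23.4 to 113 ± 6.02 CPM (-2.80 ± 0.46, 0.00029). Tgfbr1, Itgav and Atp2b4 also rose in B6 and fell in NOD. Ccr2 stood at 47.1 ± 17.8 and 45.9 ± 9.94 CPM in NOD, against 6.49 ± 1.83 and 84 ± 23.6 CPM in B6 (-3.73 ± 0.54, 5.24e-05).

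The 10 genes with the largest interactions rose in NOD and stood at most at 54.8 CPM in any B6 library of these ages. Cxcl13, which attracts B cells, stood at 2.72 ± 0.848 and 5.51 ± 2.29 CPM in B6 and at 2.6 ± 0.823 and 1570 ± 707 CPM in NOD (interaction 8.20 ± 0.51, adjusted p = 3.17e-12). Cxcl9, which interferon-gamma induces, stood at 24.7 ± 26.4 and 29.9 ± 12.7 CPM in B6 and 7.55 ± 5.53 and 2702 ± 628 CPM in NOD. Ifi30, C1qc, Grn and Hk3 fell in B6 and rose in NOD, and their interactions passed. Hsph1, Dnajb1, Lyz2, Wfdc17, H2-M2 and Sorbs3 rose in both strains, and Il1a and Stab1 fell in both. The interactions of these last 8 genes did not pass, which does not show that the changes were equal.

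**Figure D5:**
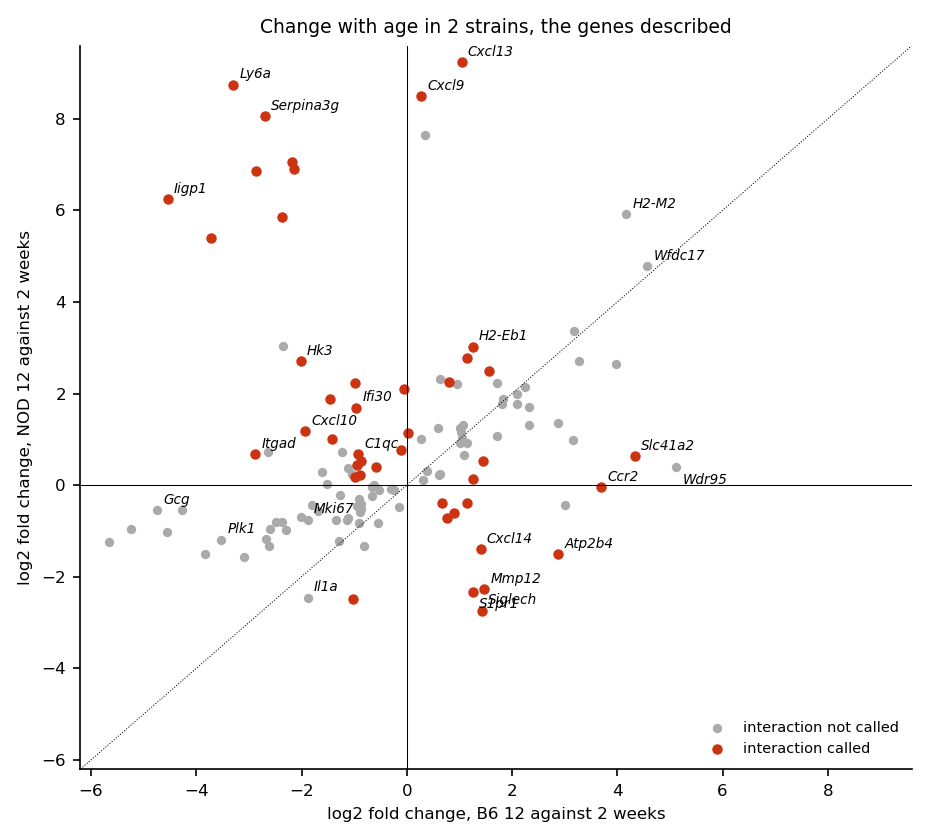
Log2 fold change from 2 to 12 weeks in B6 (x axis) and in NOD (y axis) for 124 tested genes, most of which are described in the text. Red points had a strain-by-age interaction at an adjusted p under 0.05, and the dotted line marks equal change. Mmp12, Siglech and S1pr1 lie at positive B6 and negative NOD values, and Wfdc17 lies near the line.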

How the data were processed

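Bulk RNA-seq counts per gene in 26 libraries were used as the authors deposited them in 1 table of raw counts, unnormalized. The submitters' processing notes name the tools STAR, HTSeq and DESeq2 and mm10 (GRCm38) as the build. Their versions, and any option for strand, are not given in the sources used here. Of 41092 lines, 534 repeated rows of 286 gene IDs were removed, leaving 40558 genes, of which 40254 had a symbol in GENCODE M21.

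Counts were filtered (filterByExpr, minimum count 10, minimum total 15), scaled by TMM and fitted with the edgeR 4.0.16 quasi-likelihood test (R 4.3.3), robust, with 1 mean for each strain and age. p-values were adjusted by Benjamini-Hochberg over 19703 genes. SE is the log2 fold change divided by the root of F. The code was tested on simulated data. Settings varied were the scaling (RLE, upper quartile), the filter (none, or 5 CPM in 3 libraries), DESeq2 1.42.0, limma-voom 3.58.1 and a replicate block. Others were the compared groups alone, omission of the B6 4-week libraries and a covariate for islet RNA (endocrine and acinar markers). The last were a minimum log2 fold change of 1 and omission of each compared library. GC and length offsets, and omission of Plekhh2 and 4 abundant noncoding genes, were added after seeing the data.

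Genes named are the 12 largest rises and 12 largest falls among genes called with at least 5 CPM in the higher group and no overlap of libraries, the 8 most abundant rises and 8 most abundant falls without overlap, the 10 largest interactions, the sort markers and check genes, list members that passed, and from every list at most the 4 genes lowest in adjusted p. Cd68, Cx3cr1, Plekhh2, Ly6c2, Ighm, Dnaja1, Bag3 and Hspe1 were chosen after their values were seen. The members and lists were chosen with earlier results of these data known. Some genes are not reported here.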

Additional observations from a re-analysis of the deposited data

Results flagged for a closer look

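A closer look is warranted where the change from 2 to 12 weeks differed between B6 and NOD by the strain-by-age interaction (edgeR, adjusted p under 0.05). Each value below is the NOD change less the B6 change on the log2 scale, so a positive value is a change that was higher in NOD. Among class II and antigen-processing genes it was 1.45 for Cd74, 0.94 for H2-Aa, 1.62 for H2-Ab1, 1.77 for H2-Eb1 and 2.66 for Ifi30. For interferon-induced and chemokine genes it was 12.04 for Ly6a, 10.78 for Iigp1, 10.77 for Serpina3g, 9.06 for Serpina3f, 9.11 for Ly6i, 8.21 for Ifitm1, 8.22 for Cxcl9, 3.11 for Cxcl10, 2.43 for Irf7 and 3.21 for Zbp1. Most of these genes stood higher in 2-week library 2 than in the other B6 2-week libraries, and the part of that library in these values was not tested gene by gene. Serpina3g and Serpina3f, and the Ly6 genes, have near-identical copies, so single members are uncertain.

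The value was 9.73 for Sema7a, 9.22 for Pla2g2d and 8.20 for Cxcl13, which were low in B6 at both ages. Genes of complement, Fc receptors and phagocytes had positive values: 1.61 for C1qc, 0.89 for C1qb, 3.34 for Cfp, 1.16 for Fcgr1, 2.15 for Fcgr4, 0.98 for Fcer1g, 3.55 for Itgad, 1.12 for Itgax, 1.38 for Pld4, 1.402 for Grn, 1.103 for Spi1 and 4.72 for Hk3. With GC offsets the interactions of C1qb, Spi1 and Irf7 did not pass (adjusted p = 0.332, 0.156 and 0.0689).

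Values were negative, so the change was higher in B6, for receptors and integrins (-3.73 for Ccr2, -3.58 for S1pr1, -4.17 for Siglech, -1.51 for Tgfbr1, -1.48 for Itgav and -1.46 for Lrp1). They were also negative for secreted proteins (-3.75 for Mmp12, -1.12 for Timp2, -1.53 for Cst3 and -2.80 for Cxcl14) and for -3.71 in Slc41a2, -4.39 in Atp2b4, -1.04 in Mef2a and -0.92 in Malat1. With GC offsets those of Mef2a and Malat1 did not pass (adjusted p = 0.107 and 0.0722). Lrp1 fell in B6, so its negative value stands for a larger fall in NOD.

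In 8 genes 1 of the 4 B6 12-week libraries stood far from the other 3, which chance gives in about 1 in 20 groups. The high libraries were library 1 in Lrrk2 (33.03 CPM), library 2 in Gcg (32.32 CPM) and library 4 in Hist1h1b (0.743 CPM), Hist1h2ak (15.07 CPM) and Hba-a1 (0.212 CPM, under the 0.372 CPM that 3 counts are worth in that library). The rate of chance does not hold for Hist1h1b and Hba-a1, where the other 12-week libraries were at 0 CPM and any count stands apart. The low libraries were library 1 in Ctss (1597 CPM) and library 4 in Fcgr2b (99.2 CPM) and Hspa1a (722.9 CPM).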

How the results depend on the processing

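The 392 calls between the ages of B6 became 965 with DESeq2, 16 when a log2 fold change above 1 was required, and 1807 without the B6 4-week libraries. With the settings chosen after seeing the data they became 254 with GC offsets, 247 with GC and length offsets, 215 with GC offsets and the replicate block, and 1229 with GC offsets and without the 4-week libraries. Omission of single libraries gave 185 to 433. The 329 strain-by-age interactions became 661 with DESeq2, 815 with limma-voom, 705 in a fit to the compared groups alone, 118 with the covariate for islet RNA, 71 with the fold requirement, 1191 without the 4-week libraries, 211 with GC offsets and the replicate block, 1011 with GC offsets and without the 4-week libraries, and 187 to 325 on omission of single libraries, the lowest without 2-week library 2. The causes were not tested, apart from the fold requirement, which narrows the call by construction.

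The replicate numbers were not used to pair the samples. Deviations from the group means correlated at 0.0411, -0.00731 and -0.0103 between same-numbered libraries, and at -0.0607 to 0.0515 between the others. With so few libraries these values cannot decide whether same-numbered libraries share a litter or day. With the number as a replicate block 335 genes changed and 254 interactions passed. Of 93 single genes followed that changed, 66 still passed with GC offsets, 93 with DESeq2, 73 with limma-voom, 74 in a fit to the compared groups alone, 65 with the covariate for islet RNA, 11 with the fold requirement, 83 with upper-quartile scaling, 78 with the block and 49 to 82 on omission of single libraries. None of these 93 reversed direction in the settings run. The stricter filter left no acinar or duct gene to take a median over. Depth limits genes near 3 counts.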
